A study of Mus musculus with 6 samples.

Results

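Interferon-induced effector genes encode the proteins that cells make under interferon to restrict viruses and intracellular microbes. Here they were followed in mouse marrow myeloid cells sorted by a reporter for Hdc, the gene of the histamine-forming enzyme histidine decarboxylase. The list held 52 named genes. A gene was represented by the brightest of the array probe sets annotated with that gene alone, judged by the mean of all 6 arrays. Such a probe set was present for 50 of the 52 genes, of the 18194 genes with one in all. Isg15 and Ifi44 had none. Of the 50, 48 were bright enough to be tested, against 10806 genes tested in all, and Mx2 and Iigp1 were not.

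The cells came from the leg bones (femur and tibia) of female mice, HdcGFP by genotype and C57BL/6 by strain, and carried the surface markers CD11b and Gr1. The GFP_plus group had positive or high reporter signal (3 arrays) and the GFP_min group negative or low signal (3 arrays). All mice carried the reporter, no treatment is named, and age is not given in the sources used here. The description of GFP_min replicate b reads Gr1-negative, while its sorted-cell label reads Gr1-positive. Separate mice within a group are not stated in the labels, and every p-value below therefore reflects array-to-array spread that may be technical.

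Type I interferons bind the receptor of Ifnar1 and Ifnar2, and interferon gamma that of Ifngr1 and Ifngr2. Both receptors signal through Janus kinases and STAT proteins, which with interferon regulatory factors bind short promoter elements of the effector genes. Many effectors also have a level in resting cells, set by cell type and by low steady interferon signalling.

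All levels are log2 expression values and all differences are GFP_plus minus GFP_min on that scale. A gene was called where limma, fitted over all tested probe sets, gave a Benjamini-Hochberg adjusted p under 0.05. Among the tested interferon genes 13 were higher (27.1%) and 25 lower (52.1%) in GFP_plus cells, where 21.0% and 27.6% of all tested genes were. The remaining 10 were not called, while 48.7% of all tested genes were called in either direction. Without GFP_min replicate b the counts were also 13 and 25, but Dtx3l and Cmpk2 lost their calls and Ifit3 and Ifi204 gained one. The median difference of the tested interferon genes was −0.34, against 0.0023 over all tested genes. Groups did not overlap in 40 of the 48 (83.3%), against 59.3% of all tested genes. Ifi203 passed the level filter through GFP_min arrays only, and Ifi213 mainly through them, so their difference is partly fixed by that filter. In these bulk samples fewer cells of a type and less RNA per cell cannot be told apart.

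The falls were the larger changes. Of the tested interferon genes 10 fell by at least 1 log2 (20.8%), against 8.75% of all tested genes. Of them 7 fell by at least 2 (14.6%), against 2.91%, and 4 fell by at least 4, against 0.898%. These 7 were Ifi209, Mx1, Ifi213, Mndal, Ifi207, Gbp3 and Bst2. A rise of at least 1 log2 occurred in 1 of the 48, Oasl1, where 1.52% of all tested genes rose by as much.

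The scale of the arrays sets the direction of the small differences. Centring each array on the median of its tested probe sets adds 0.20 to every difference, centring on ribosomal protein genes adds 0.54, and centring on the bacterial poly-A control RNAs adds −0.41. The interferon genes higher on the deposited scale and under all 3 centrings were 5: Oas3, Oasl1, Oasl2, Ifit1 and Rsad2. Those lower under all of them were 13: Zbp1, Parp12, Bst2, Xaf1, Mx1, Gbp3, Irgm1, Ifi47, Ifi203, Ifi207, Ifi209, Ifi213 and Mndal. Higher genes made up 34.2% of the called interferon genes on the deposited scale, 48.6% with median, 63.9% with ribosomal and 13.5% with poly-A centring. Over all tested genes these shares were 43.2%, 68.2%, 86.0% and 6.52%.

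**Figure D1:**
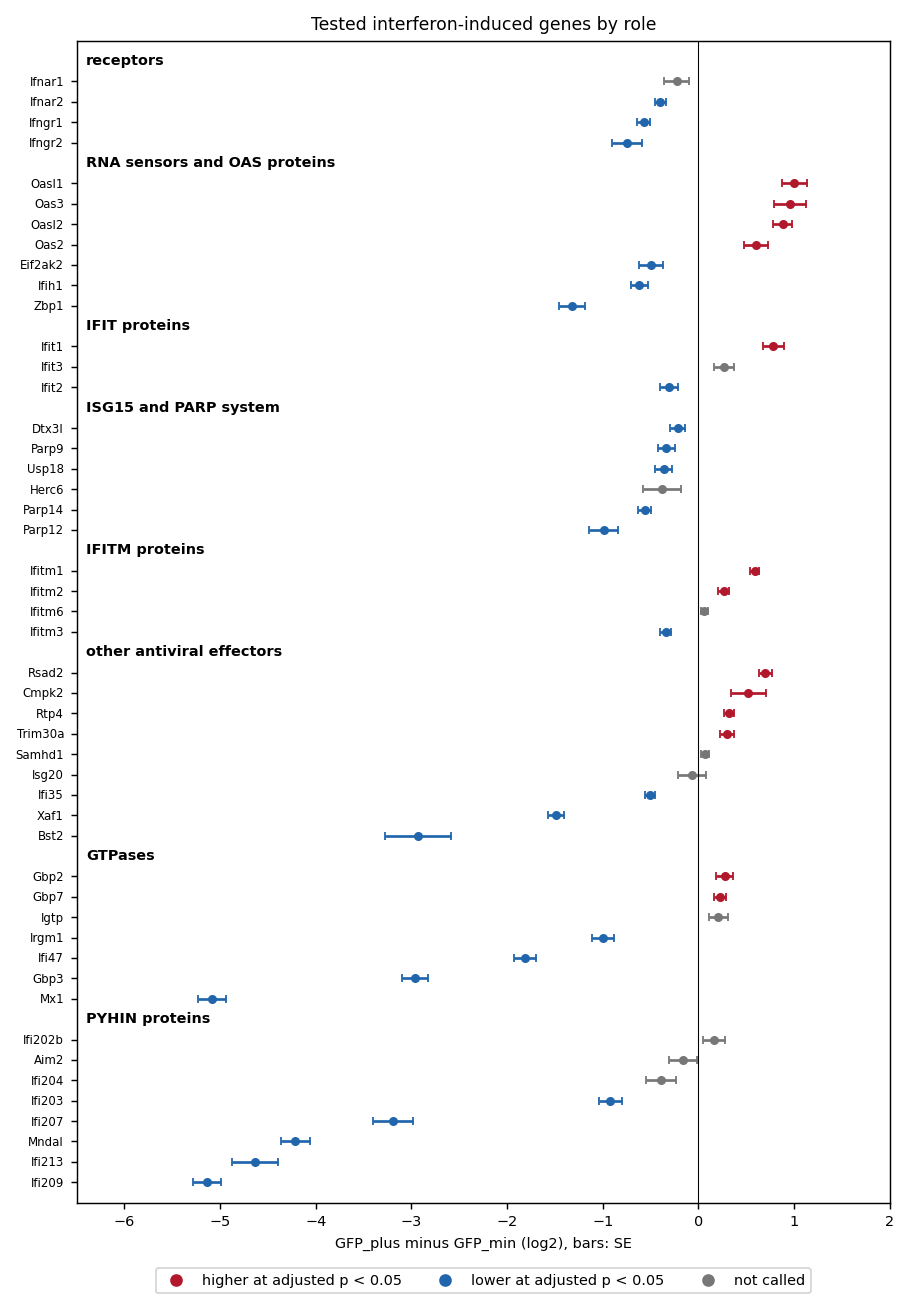
Difference between GFP_plus and GFP_min (x axis, log2, bars are the standard error) for each of the 48 tested interferon genes, grouped by role and coloured by call at an adjusted p under 0.05. The PYHIN genes and GTPases hold 6 of the 7 falls beyond 2 log2, while the rises lie between 0.23 and 1.00; small differences change sign under other centrings.

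Markers of other cell types moved between the same samples. Over all tested genes 21.0% were higher and 27.6% lower. Of 30 monocyte and macrophage markers 26 had a probe set and were tested, and 21 were lower in GFP_plus cells and 1 higher. Their summed linear signal was 31944 to 32739 in GFP_plus arrays, against 106669 to 108866 in GFP_min arrays. Of 9 tested conventional dendritic cell markers 8 were lower and 1 higher, and their list summed to 293 to 316 in GFP_plus and 1101 to 1327 in GFP_min arrays. Of 16 tested neutrophil markers 10 were higher and 0 lower, with sums of 201307 to 214454 in GFP_plus and 183291 to 188922 in GFP_min arrays. Of 8 tested basophil and mast cell markers 7 were higher and 0 lower, with sums of 4432 to 4679 in GFP_plus and 2398 to 2493 in GFP_min arrays, and Mcpt8 was higher by 4.21. Both tested eosinophil markers were higher (Prg2 by 3.34), as were all 3 tested erythroid markers (Car1, Car2 and Tfrc). Of the eosinophil list Prg3, Ccr3, Il5ra and Gata1 lay below the array medians on all 6 arrays, and Epx was not tested. Of the erythroid list Hba-a1, Alas2, Klf1 and Epor lay below them on all 6 arrays. Of 6 tested B cell markers 1 was lower (16.7%), and of 6 tested T and NK cell markers 1 was higher (16.7%) and 2 lower (33.3%). Gapdh, whose 3′ and 5′ probe sets report on RNA integrity, had a 3′ to 5′ gap of 0.64 log2 in GFP_plus and 0.31 in GFP_min arrays, while the gap of beta-actin was 0.87 in GFP_plus and 0.81 in GFP_min. Vcan, of the monocyte list, and Cd209a and Irf4, of the conventional dendritic cell list, lay below the array medians in GFP_plus. Cpa3 and Fcer1a, of the basophil and mast cell list, and the erythroid Car1 lay below them in GFP_min. These genes passed the level filter through the other group only, so their calls are partly fixed by that filter. The part of the marker and RNA integrity differences in the interferon gene results was not tested.

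Promoter sequences are shown for PYHIN genes that fell, for Gbp3 with neighbours that did not follow it, and for 3 antiviral genes that were higher. The windows are from RefSeq (GRCm38.p6) and run from 250 bases before to 50 after the gene start, read on the gene's strand. They were found for 42 of the 52 genes, and Mx1, Zbp1 and Ifi204 were among those without one. The window of Bst2 was found but is not printed. Capitals mark matches, on either strand, to GAAA, any 2 bases and GAAA, the core of the interferon-stimulated response element that interferon-activated factors bind. Of all 32851 windows 3.44% held this core, and 20 of the 42 interferon genes had a window with it. The first set is from the PYHIN cluster, with a full window for Mndal (chr1:173880138-173880437, minus strand) and for Ifi209 (chr1:173630609-173630908, plus strand), and stretches with 30 bases on each side of the match for Ifi213 (chr1:173599306-173599375, minus strand), Ifi207 (chr1:173741811-173741880, minus strand) and Ifi203 (chr1:173942488-173942557, minus strand).
Mndal: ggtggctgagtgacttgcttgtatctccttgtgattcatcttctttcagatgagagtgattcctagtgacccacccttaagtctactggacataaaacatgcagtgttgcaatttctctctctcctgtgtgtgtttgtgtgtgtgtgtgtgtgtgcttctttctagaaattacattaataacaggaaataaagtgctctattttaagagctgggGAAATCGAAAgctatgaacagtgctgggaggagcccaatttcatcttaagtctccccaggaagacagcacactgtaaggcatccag
Ifi209: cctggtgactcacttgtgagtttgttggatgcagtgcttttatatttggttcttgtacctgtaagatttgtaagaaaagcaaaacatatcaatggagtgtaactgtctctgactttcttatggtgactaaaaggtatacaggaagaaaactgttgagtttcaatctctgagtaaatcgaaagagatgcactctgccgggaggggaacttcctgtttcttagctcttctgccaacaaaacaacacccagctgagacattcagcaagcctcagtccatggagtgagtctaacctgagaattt
Ifi213: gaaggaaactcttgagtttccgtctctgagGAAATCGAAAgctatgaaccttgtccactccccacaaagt
Ifi207: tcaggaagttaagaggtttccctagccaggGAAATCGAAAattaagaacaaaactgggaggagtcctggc
Ifi203: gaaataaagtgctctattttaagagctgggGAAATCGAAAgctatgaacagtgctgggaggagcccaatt

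The matches shown for Mndal, Ifi213, Ifi207 and Ifi203 were the same 10 bases, GAAATCGAAA. They began at positions −36, −73, −41 and −35 from the gene start. Another window of Mndal, not printed, held a different match to the core at position −54, and another window of Ifi203 held none. Only 16 of the 32851 windows held these bases, a search chosen after the sequences were read. Each of the 16 belonged to a different gene, 7 of them in the PYHIN cluster and 9 outside it. The Ifi209 window had no match to the core. Its nearest run to the 10 bases, at position −79, differed by 1 substitution, G1T, counted from the first of the 10 bases and giving that base first. The windows of Mndal and Ifi203 were 90.7% identical in a global alignment, while those of Ifi213 and Ifi207 were 50.1% identical. Of the 7 cluster genes with the 10 bases these 4 were measured, and all were lower in GFP_plus cells, as was Ifi209. Over all tested genes 27.6% were lower. The cluster gene Ifi204, which was not called, had no window and could not be searched for the 10 bases. Ifi203 passed the level filter through GFP_min arrays only and Ifi213 mainly through them. The cluster genes Ifi206, Ifi208 and Ifi214 also held the 10 bases but had no probe set of their own. Of the 9 genes outside the cluster 3 were higher, namely Ddx58 (0.36), Pnrc1 (0.59) and Serpinb6a (0.46), and Parp11 was not called (−0.02). Adcyap1 and Six3os1 were not tested, and Gm26797, Gm31431 and Ripk1 had no probe set of their own.

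The second set holds a GTPase gene that fell, Gbp3 (chr3:142559794-142560093, plus strand), its neighbours Gbp7 (chr3:142530253-142530322, plus strand) and Gbp2 (chr3:142620574-142620643, plus strand), which were higher, and 3 antiviral genes that were higher, Ifit1 (chr19:34640639-34640938, plus strand), Oas3 (chr5:120777695-120777764, minus strand) and Rsad2 (chr12:26456533-26456602, minus strand). Gbp3 and Ifit1 are full windows.
Gbp3: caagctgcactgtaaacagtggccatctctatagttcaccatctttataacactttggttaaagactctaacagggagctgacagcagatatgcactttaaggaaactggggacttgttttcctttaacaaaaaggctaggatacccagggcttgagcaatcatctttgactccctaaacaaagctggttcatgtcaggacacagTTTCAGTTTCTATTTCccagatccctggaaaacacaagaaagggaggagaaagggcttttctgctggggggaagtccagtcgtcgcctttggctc
Gbp7: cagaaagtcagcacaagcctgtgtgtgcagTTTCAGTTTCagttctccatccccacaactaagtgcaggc
Gbp2: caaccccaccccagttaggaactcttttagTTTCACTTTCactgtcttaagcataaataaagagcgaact
Ifit1: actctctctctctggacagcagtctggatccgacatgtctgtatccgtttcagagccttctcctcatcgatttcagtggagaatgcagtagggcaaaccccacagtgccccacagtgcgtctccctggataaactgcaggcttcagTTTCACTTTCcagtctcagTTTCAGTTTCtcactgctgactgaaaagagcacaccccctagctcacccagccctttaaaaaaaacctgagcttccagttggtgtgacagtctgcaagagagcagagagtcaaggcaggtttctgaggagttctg
Oas3: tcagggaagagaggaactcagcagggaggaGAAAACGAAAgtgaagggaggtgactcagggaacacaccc
Rsad2: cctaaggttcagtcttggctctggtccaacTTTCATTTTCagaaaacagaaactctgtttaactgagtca

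The response element core was thus present in genes that moved either way. It was found in the windows of 7 of 11 interferon genes that were higher, 10 of 20 that were lower and 2 of 9 tested ones that were not called. The GAS element TTCNNNGAA, which STAT dimers bind, was in 8.30% of all windows and in 1 of 11 higher, 6 of 20 lower and 6 of 9 uncalled genes. Another search, chosen after the values were seen, was for GGAA, any 2 bases and GAAA, a site shared by ETS and interferon regulatory factors, and found it in 4 of the 42 genes and 2.72% of all windows. It overlapped the response element core in 39 windows. A match describes these letters only and is no evidence of binding.

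**Figure D2:**
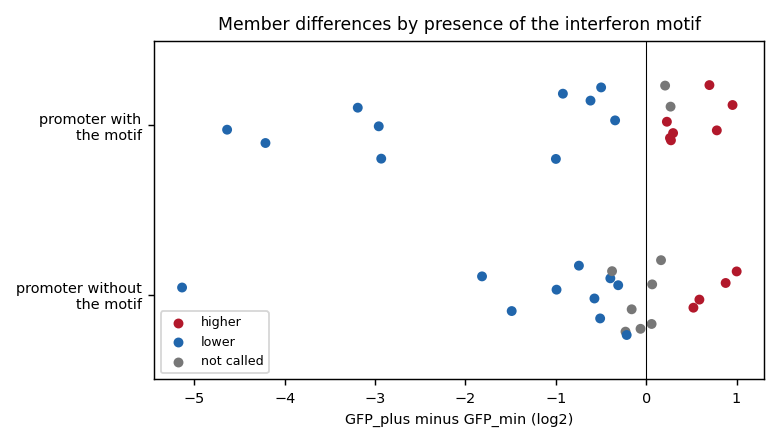
Difference between GFP_plus and GFP_min (x axis, log2) for the 40 tested interferon genes with a promoter window, in a row for windows with the response element core and a row for windows without it; the height within a row is random spacing. Higher and lower genes appear in both rows, and Ifi209, the leftmost point, has no match.

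Of the 4 receptor genes 3 were lower in GFP_plus cells by their brightest probe sets, and in 2 of the 4 genes another probe set was called higher. Over all tested genes 27.6% were lower. Ifnar2, a chain of the type I receptor, was 10.49, 10.47 and 10.45 in GFP_plus replicates a, b and c, against 10.87, 10.95 and 10.80 in GFP_min. The groups did not overlap, and the difference was −0.40 (SE 0.06, limma adjusted p = 0.00056). Ifngr1, the ligand-binding chain of the interferon gamma receptor, was 9.78, 9.61 and 9.75 in GFP_plus, against 10.28, 10.27 and 10.31 in GFP_min (−0.57, SE 0.07, limma adjusted p = 0.000124). Its partner chain Ifngr2 was 9.07, 8.99 and 9.28 in GFP_plus, against 9.63, 10.26 and 9.68 in GFP_min, where replicate b stood above the others (−0.74, SE 0.16, limma adjusted p = 0.00353; −0.54 without it). A second, dimmer probe set of Ifngr2 was called the other way (0.37), and the mean of its probe sets was not called (−0.19, adjusted p = 0.167). Ifnar1, the other type I chain, was 7.83, 7.39 and 7.48 in GFP_plus and 7.83, 7.85 and 7.70 in GFP_min, and the groups overlapped (−0.23, adjusted p = 0.180). Its dimmer probe set was higher (0.43, adjusted p = 0.0167), so the direction of Ifnar1 and Ifngr2 is uncertain. With ribosomal centring the difference of Ifnar2 turned to 0.14, and no receptor kept its call.

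The 4 oligoadenylate synthetase genes on the list, Oas2, Oas3, Oasl1 and Oasl2, were higher in GFP_plus cells, but the family as a whole was divided. These proteins sense double-stranded RNA, and the active enzymes make short oligoadenylates that switch on a ribonuclease. Oasl1, a relative that in mice limits translation of Irf7, was 6.22, 6.15 and 6.14 in GFP_plus, against 5.20, 5.28 and 5.03 in GFP_min (1.00, SE 0.13, limma adjusted p = 0.000202). Oas3 was 6.59, 6.32 and 6.73 in GFP_plus, against 5.55, 5.83 and 5.39 in GFP_min (0.96, SE 0.16, limma adjusted p = 0.00106). Oasl2 was 9.47, 9.52 and 9.61 in GFP_plus, against 8.79, 8.46 and 8.71 in GFP_min (0.88, SE 0.10, limma adjusted p = 7.56e-05). Every GFP_plus array lay above every GFP_min array for these genes and for Oas2 (0.60), which lost its call with poly-A centring. Outside the list Oas1a was lower, at 10.02, 9.98 and 9.90 in GFP_plus, against 10.40, 10.72 and 10.52 in GFP_min (−0.58, limma adjusted p = 0.000481), though this fall is only slightly larger than the ribosomal shift. Oas1c was higher (0.64, limma adjusted p = 0.0061), and Oas1b was not called (0.30, adjusted p = 0.0688).

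Zbp1, Ifih1 and Eif2ak2, the other 3 sensors of foreign nucleic acid in this role, were lower. Of the 7 genes in this role 57.1% were higher and 42.9% lower, against 21.0% and 27.6% of all tested genes. Zbp1, which recognises Z-form nucleic acid and can start necroptosis, was 7.54, 7.09 and 7.60 in GFP_plus, against 8.71, 8.74 and 8.76 in GFP_min (−1.33, SE 0.14, limma adjusted p = 3.76e-05). Ifih1, a cytosolic RNA sensor, was 9.41, 9.17 and 9.21 in GFP_plus, against 9.80, 9.89 and 9.96 in GFP_min (−0.62, SE 0.09, limma adjusted p = 0.00031). Eif2ak2, the kinase that halts translation on double-stranded RNA, was 8.54, 8.21 and 8.59 in GFP_plus, against 9.13, 8.85 and 8.86 in GFP_min (−0.50, SE 0.12, limma adjusted p = 0.00861). The groups were apart for all 3, but Ifih1 lost its call with ribosomal centring, and Eif2ak2 lost it with median centring and turned to 0.037 with ribosomal centring.

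IFIT genes, whose proteins bind foreign RNA, did not move together. Ifit1 was 8.65, 8.73 and 8.51 in GFP_plus, against 7.81, 8.03 and 7.71 in GFP_min (0.78, SE 0.11, limma adjusted p = 0.000333). Ifit2 was 8.22, 8.27 and 8.10 in GFP_plus, against 8.45, 8.56 and 8.51 in GFP_min (−0.31, SE 0.09, limma adjusted p = 0.0200). Ifit3 was 9.72, 9.61 and 9.79 in GFP_plus, and 9.50, 9.60 and 9.21 in GFP_min (0.27, adjusted p = 0.0606). The groups were apart by very little for Ifit3. Ifit2 lost its call without GFP_plus replicate a or c or GFP_min replicate c and turned to 0.23 with ribosomal centring, and Ifit3 gained one without GFP_min replicate b (0.35) and with median centring (0.47). Differences between members of the family were not tested.

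IFITM genes, which encode small membrane proteins that hinder viral fusion, also divided. Ifitm1 was 12.72, 12.76 and 12.81 in GFP_plus, against 12.10, 12.23 and 12.19 in GFP_min (0.59, SE 0.05, limma adjusted p = 8.8e-06). Ifitm2 was 11.94, 11.96 and 12.07 in GFP_plus, against 11.74, 11.79 and 11.65 in GFP_min (0.26, SE 0.06, limma adjusted p = 0.0039). Ifitm3, the member best known for restricting influenza virus, was 12.87, 12.94 and 12.82 in GFP_plus, against 13.32, 13.09 and 13.25 in GFP_min (−0.34, SE 0.06, limma adjusted p = 0.00114). The groups were apart for all 3 and overlapped for Ifitm6, which was 14.14, 14.04 and 14.12 in GFP_plus and 14.02, 14.08 and 14.03 in GFP_min (0.06, adjusted p = 0.199). The direction of Ifitm2 turned with poly-A centring (−0.14) and that of Ifitm3 with ribosomal centring (0.19), while Ifitm1 kept its direction under all centrings and lost its call with poly-A centring. In chromosome order, on chromosome 7, they stand as Ifitm2, Ifitm1, Ifitm3 and Ifitm6.

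**Figure D3:**
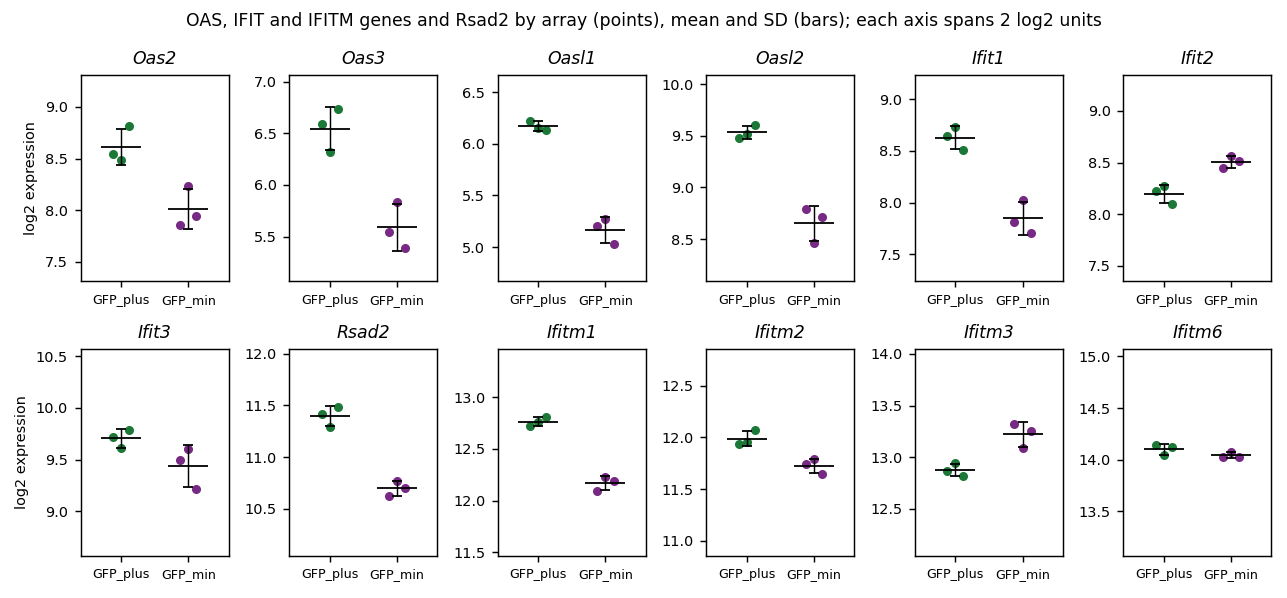
Log2 expression (y axis, each spanning 2 log2 units) by array for OAS, IFIT and IFITM genes and Rsad2, with 3 GFP_plus arrays left and 3 GFP_min arrays right and the mean and SD as bars. Oas2, Oas3, Oasl1, Oasl2, Ifit1, Rsad2, Ifitm1 and Ifitm2 lie higher in GFP_plus arrays, while Ifit2 and Ifitm3 lie lower; Ifitm2 turns to −0.14 with poly-A centring, and Ifit2 and Ifitm3 to 0.23 and 0.19 with ribosomal centring.

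Genes of the ISG15 conjugation and ADP-ribosylation group were lower in 5 of 6 tested (83.3%), against 27.6% of all tested genes. Parp12, a mono-ADP-ribosyltransferase that restricts RNA viruses, was 8.02, 8.13 and 7.56 in GFP_plus, against 8.96, 8.74 and 8.99 in GFP_min (−0.99, SE 0.15, limma adjusted p = 0.000437). Parp14 was 9.61, 9.58 and 9.55 in GFP_plus, against 10.13, 10.15 and 10.15 in GFP_min (−0.56, SE 0.06, limma adjusted p = 8.12e-05). Usp18, which strips ISG15 from proteins and restrains the type I receptor, was 8.03, 8.02 and 8.04 in GFP_plus, against 8.34, 8.42 and 8.42 in GFP_min (−0.36, SE 0.09, limma adjusted p = 0.00709). The groups were apart for all 3, although Parp12 varied in GFP_plus with an SD of 0.30. Parp9 (−0.34) and its partner ubiquitin ligase Dtx3l (−0.22), neighbours of Parp14 on chromosome 16, were lower too, but the call of Dtx3l was lost on leaving out any of the 6 samples. Herc6, the mouse ISG15 ligase, was not called (−0.38, adjusted p = 0.153). Parp12 kept its call under all centrings. Usp18, Parp9 and Dtx3l lost theirs with median centring, and with ribosomal centring they turned to 0.17, 0.20 and 0.32 while Parp14 lost its call. The probe set shared by Isg15 and Gm9706 differed by 0.07 (adjusted p = 0.669) and belongs to neither gene alone.

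Other antiviral effectors were higher in 4 and lower in 3 of 9 tested (44.4% and 33.3%), against 21.0% and 27.6% of all tested genes. The share of lower genes thus lies near that of all tested genes. Rsad2 encodes viperin, which makes a chain-terminating nucleotide, and its chromosomal neighbour Cmpk2 encodes a nucleotide kinase. Rsad2 was 11.42, 11.30 and 11.48 in GFP_plus, against 10.62, 10.77 and 10.70 in GFP_min (0.70, SE 0.07, limma adjusted p = 2.4e-05). Its 3 probe sets were all higher. Cmpk2 was 10.16, 10.62 and 10.04 in GFP_plus, against 10.03, 9.34 and 9.88 in GFP_min (0.52, SE 0.19, limma adjusted p = 0.0435). The groups of Cmpk2 nearly touched, and its call was lost without GFP_plus replicate a or b or GFP_min replicate b or c, with differences of 0.32 to 0.59 there. Its other probe set was not called (−0.22), and the mean of both was 0.15 (adjusted p = 0.271). Rtp4, a chaperone of receptor proteins with antiviral activity, was 11.41, 11.39 and 11.45 in GFP_plus, against 11.10, 11.14 and 11.06 in GFP_min (0.32, SE 0.05, limma adjusted p = 0.000769). Trim30a was higher by 0.30. Rtp4 and Trim30a turned to −0.089 and −0.11 with poly-A centring, and Cmpk2 lost its call.

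Xaf1, which antagonises inhibitors of apoptosis, fell to 8.45, 8.35 and 8.38 in GFP_plus, against 9.97, 9.83 and 9.84 in GFP_min (−1.49, SE 0.08, limma adjusted p = 4.66e-07). Ifi35 was 10.88, 10.89 and 10.84 in GFP_plus, against 11.34, 11.36 and 11.43 in GFP_min (−0.51, SE 0.05, limma adjusted p = 4.44e-05), and turned to 0.026 with ribosomal centring. Both genes were lower in each of their tested probe sets. Bst2 encodes tetherin, which holds budding virions at the cell surface and marks plasmacytoid dendritic cells. It was 4.47, 4.42 and 4.10 in GFP_plus, against 7.03, 8.20 and 6.56 in GFP_min (−2.93, SE 0.34, limma adjusted p = 9.12e-05). The SD of 0.84 in GFP_min was the widest of any tested interferon gene and came with the high value of replicate b, the array with the Gr1-negative description. Without that array the difference was −2.46 (limma adjusted p = 1.75e-05). Of 9 other plasmacytoid dendritic cell markers tested, 3 were lower (33.3%, near the 27.6% of all tested genes) and 0 higher. Their list summed on the linear scale to 184 to 199 in GFP_plus and 558 to 658 in GFP_min arrays. Pacsin1, one of these markers, lay below the array medians on all 6 arrays, and the defining marker Siglech close to them, at 2.63, 2.77 and 2.74 in GFP_plus and 2.98, 2.88 and 3.04 in GFP_min. Their part in the difference of Bst2 was not tested. Samhd1, which depletes the nucleotides that retroviruses need, was not called by its brightest probe set (0.07), although 3 of its 5 probe sets were higher. Isg20, an exonuclease, was not called (−0.06).

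Interferon-inducible GTPases showed deep falls and small rises. Of 7 tested 4 were lower (57.1%) and 2 higher (28.6%), against 27.6% and 21.0% of all tested genes. Mx1, a dynamin-like protein that blocks influenza virus and whose C57BL/6 allele is known to lack coding exons, was 3.20, 3.56 and 3.18 in GFP_plus, against 8.30, 8.48 and 8.42 in GFP_min. It was 33.9-fold lower (−5.08, SE 0.15, limma adjusted p = 5.37e-09), with GFP_plus arrays not far above the array medians of 2.82 to 2.88. Gbp3, a guanylate-binding protein, was 5.15, 5.26 and 4.88 in GFP_plus, against 7.96, 8.12 and 8.08 in GFP_min, a 7.78-fold fall (−2.96, SE 0.14, limma adjusted p = 1.48e-07). Its neighbours on chromosome 3 did not follow. Gbp2 was 9.14, 9.14 and 8.97 in GFP_plus, against 8.75, 8.88 and 8.81 in GFP_min (0.27, SE 0.09, limma adjusted p = 0.0263). Gbp7 was 10.31, 10.22 and 10.22 in GFP_plus, against 10.02, 10.05 and 9.99 in GFP_min (0.23, SE 0.06, limma adjusted p = 0.0157). These rises turned to −0.13 and −0.18 with poly-A centring. Gbp2 lost its call without GFP_plus replicate a or b or GFP_min replicate a or c, and Gbp7 without replicate a of GFP_plus or c of GFP_min.

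The immunity-related GTPases, which act on vacuoles that hold microbes, moved both ways. Ifi47 was 9.01, 8.95 and 8.60 in GFP_plus, against 10.57, 10.83 and 10.61 in GFP_min, a 3.52-fold fall (−1.82, SE 0.12, limma adjusted p = 1.51e-06). Irgm1, which keeps the effector GTPases off the cell's own membranes, averaged 7.96 ± 0.15 in GFP_plus and 8.96 ± 0.15 in GFP_min (SD, n = 3 each; −0.999, limma adjusted p = 7.13e-05). Igtp, a regulator of the same kind, was not called (0.21, adjusted p = 0.101) but was with median centring (0.41). Irgm2, a further member of the family outside the list, averaged 9.58 ± 0.07 in GFP_plus and 9.05 ± 0.06 in GFP_min and was higher (SD, n = 3 each; 0.52, limma adjusted p = 0.000446). Iigp1, an effector, lay below the array medians on all 6 arrays and was not tested. So did Mx2, at 1.86 to 1.94 in GFP_plus and 2.60 to 2.80 in GFP_min.

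The PYHIN genes, a tandem family on chromosome 1 whose proteins bind DNA or act in the nucleus, held 3 of the 4 falls beyond 4 log2. Ifi209 was 6.16, 6.08 and 5.58 in GFP_plus, against 11.19, 11.07 and 10.97 in GFP_min, a 35.2-fold fall (−5.14, SE 0.15, limma adjusted p = 5.13e-09). Ifi213 was 2.82, 2.86 and 1.93 in GFP_plus, where 1 of 3 arrays exceeded its median, against 6.94, 7.26 and 7.33 in GFP_min (−4.64, SE 0.24, limma adjusted p = 3.77e-07). Mndal was 8.03, 7.72 and 7.55 in GFP_plus, against 12.09, 11.67 and 12.18 in GFP_min, an 18.6-fold fall (−4.21, SE 0.15, limma adjusted p = 2.22e-08). The second probe sets of Ifi209 (−5.19), Ifi213 (−1.35) and Mndal (−4.71) were lower as well. That of Ifi213 passed the level filter through GFP_min arrays only, so its difference is partly fixed by that filter. Against the array medians it was at least 1.74-fold lower. Ifi207 fell by 3.19 to 3.96 ± 0.11 in GFP_plus, against 7.15 ± 0.44 in GFP_min (SD, n = 3 each). Ifi203 fell to 2.28 ± 0.20 in GFP_plus, below the array medians, against 3.20 ± 0.10 in GFP_min, which makes it at least 1.26-fold lower.

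The rest of the family was not called. Aim2, the DNA sensor that assembles an inflammasome, was 5.36, 5.67 and 5.37 in GFP_plus and 5.55, 5.54 and 5.80 in GFP_min (−0.16, adjusted p = 0.407). Ifi204 differed by −0.39 (adjusted p = 0.0715) and passed without GFP_plus replicate b or GFP_min replicate b. Ifi202b, known to be little expressed in C57BL/6, averaged 3.11 ± 0.16 in GFP_plus and 2.94 ± 0.09 in GFP_min (SD, n = 3 each). The cluster was taken here as the 12 genes that RefSeq orders from Aim2 to Ifi202b, of which 4 had no probe set of their own. These ends were chosen, so it is no result that the 5 genes that fell lie between them, as does Ifi204. Some probe sets shared by several genes fell too. The set annotated to Ifi203, Ifi203-ps and LOC100862473 was 4.11, 4.13 and 4.03 in GFP_plus, against 10.15, 10.03 and 10.22 in GFP_min (−6.04). The set of Mndal, Ifi211, Ifi205 and Ifi204 fell by 3.70. That of Ifi203, Ifi203-ps, LOC100862473 and LOC102641031 fell by 4.33, with 1 of 3 GFP_plus arrays above its median. A dimmer set annotated as the first (−0.21) and that of Ifi202b and LOC100044068 (−0.02) were not tested. Both lay below the array medians on all 6 arrays. The brightest Mndal probe set is of the kind whose probes may match other transcripts, so values within the family may mix its members.

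**Figure D4:**
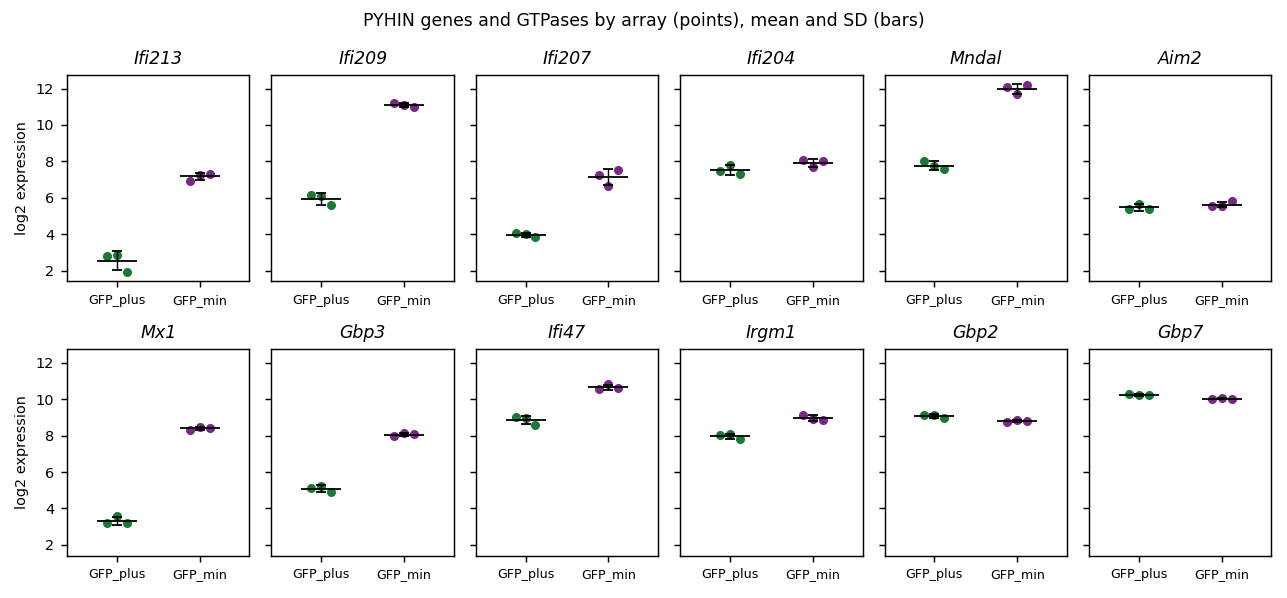
Log2 expression (y axis) by array for PYHIN genes and GTPases, with 3 GFP_plus arrays left and 3 GFP_min arrays right and the mean and SD as bars. Ifi213, Ifi209, Ifi207, Mndal, Mx1 and Gbp3 differ by −2.96 (Gbp3) to −5.14 (Ifi209) log2, while Aim2 and Ifi204 overlap.

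**Figure D5:**
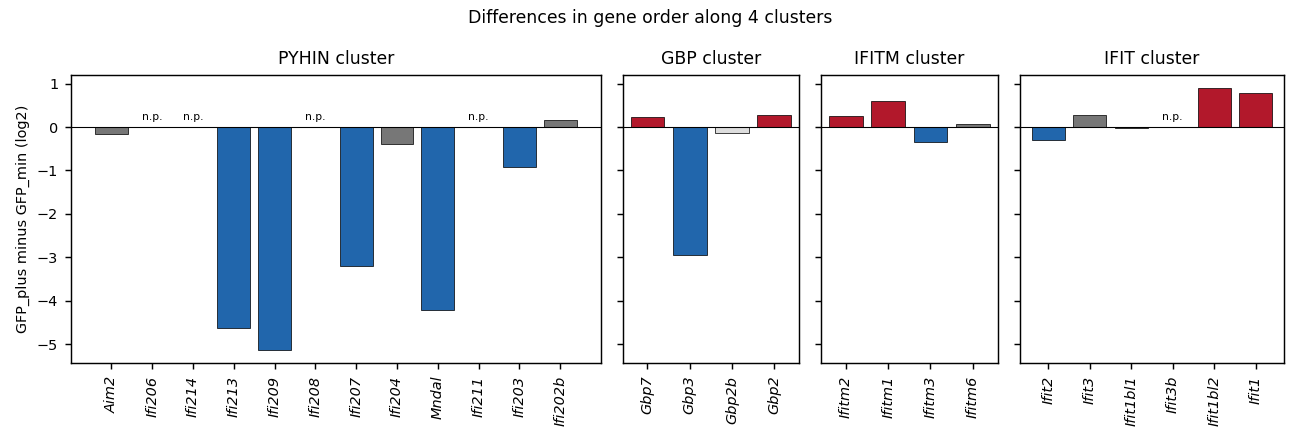
Difference between GFP_plus and GFP_min (y axis, log2) for genes in RefSeq chromosome order along the PYHIN, GBP, IFITM and IFIT clusters, coloured red for higher, blue for lower, dark grey for not called and light grey for not tested; n.p. marks genes with no probe set of their own. Each cluster holds falls together with rises or uncalled genes, as with Gbp3 between Gbp7 and Gbp2, whose rises turn negative with poly-A centring. In the PYHIN cluster Ifi213, Ifi209 and Ifi207 fall in succession among the genes with a probe set.

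Genes that carry the interferon signal were mixed. Of 13 tested genes of the signal chain 4 were higher and 3 lower, and the median difference was 0.06; over all tested genes 21.0% were higher and 27.6% lower. Socs3, a feedback inhibitor, was 10.45 ± 0.27 in GFP_plus and 9.02 ± 0.06 in GFP_min (SD, n = 3 each; 1.42, limma adjusted p = 1.01e-05). Irf1 was higher by 0.61 and Jak1 by 0.35. Irf8, a regulatory factor that directs monocyte development, was 5.63 ± 0.16 in GFP_plus and 10.69 ± 0.07 in GFP_min (SD, n = 3 each; −5.05, limma adjusted p = 8.53e-10). Tyk2, the Janus kinase of Ifnar1, was lower by 1.16 and Stat2 by 0.48. With poly-A centring the rise of Jak1 turned negative, and with ribosomal centring the fall of Stat2 turned positive, as the shifts given above imply. Irf7 (−0.25) and Irf9 (0.02), which drive the type I response, were not called. Of 10 interferon ligand genes 8 had a probe set, and 0 passed the level filter.

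Among genes that sense infection ahead of interferon, 3 of 9 tested were higher and 3 lower (33.3% each), against 21.0% and 27.6% of all tested genes. Tlr7, a sensor of single-stranded RNA, was 4.44, 4.73 and 4.65 in GFP_plus, against 6.51, 7.55 and 6.67 in GFP_min (−2.30, SE 0.25, limma adjusted p = 5.1e-05), highest in replicate b as Bst2 was. Mavs, the adaptor of cytosolic RNA sensors, was lower by 1.85 and the kinase gene Ikbke by 0.32. Ddx58, Myd88 and Tbk1 were higher by 0.36, 0.26 and 0.19, all within the shift of poly-A centring. Of 40 further interferon-induced genes tested, 11 were higher and 14 lower, and the median difference was −0.02. These shares (27.5% and 35.0%) lie near the 21.0% and 27.6% of all tested genes. Mov10, an RNA helicase, was higher by 1.43, and Ddx60 and Cd274 by 0.78 each. Ifi30, a lysosomal thiol reductase of antigen presentation, was lower by 4.24 and Tor3a by 2.01. Lgals3bp was lower by 3.01, or at least 5.90-fold against the array medians. It passed the level filter through GFP_min arrays only, so this fall is partly fixed by that filter.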

How the data were processed

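Sorted CD11b+Gr1+ marrow cells were measured on Affymetrix arrays, with 3 GFP_plus and 3 GFP_min samples grouped by their titles. The deposited table, made by the authors, holds 45101 probe sets as log2 values. GCRMA is the tool in the submitters' processing notes, while its settings are not given there. GCRMA compresses values near background, so folds of dim genes are uncertain. That the scale is log2 was read from the range of 0.874 to 14.9, and array medians were 2.82 to 2.88.

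Probe sets took their gene from the platform annotation (34958 with 1 symbol). Leaving out 64 control probe sets, those above their own array's median on at least 3 of 6 arrays were tested (22956). Differences were fitted by lmFit and moderated by eBayes (trend on) from limma 3.58.1 under R 4.3.3, p-values were adjusted by Benjamini-Hochberg across these probe sets, and the script was tested on simulated data. Array number limits the precision. Where one group lay below its array medians on every array, the fold is a bound against those medians.

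The members and lists were chosen with earlier results of these data known. Named genes were the receptors, the IFITM genes and up to 3 called members per direction in each role, and up to 3 per direction in each pathway list. Alternatives changed the filter, variance model, weights, normalization, probe sets, size threshold, replicate block and samples. Same-lettered samples of the 2 groups did not deviate together (correlations −0.18, −0.30 and −0.22), so the letters were not used as pairs. These correlations rest on 3 arrays per group and cannot exclude a shared source of same-lettered samples. Plots used matplotlib 3.10.9.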

Additional observations from a re-analysis of the deposited data

Results flagged for a closer look

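A probe set outside those used above carried a higher signal in GFP_plus arrays. It is shared by Trim30d and Trim30a and was 8.60, 8.78 and 8.42 in GFP_plus, against 8.10, 8.05 and 7.90 in GFP_min, a difference of 0.58 (limma adjusted p = 0.00218) with no overlap between the groups. The probe sets of Trim30a alone differed by 0.30 and 0.16.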

How the results depend on the processing

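The filter on all 6 arrays, no filter, no variance trend, array weights, quantile normalization and the mean of probe sets gave 11 to 14 higher and 23 to 25 lower interferon genes, against 13 and 25. Leaving out 1 sample gave 10 to 13 higher and 23 to 25 lower. The replicate block gave 10 and 23, and Ifit2, Dtx3l, Cmpk2, Gbp2 and Gbp7 lost their calls with it. The labels name no pairing, but the correlations of so few arrays cannot exclude it. Whether these lost calls reflect a pairing was not tested. A size threshold of 1 log2 left 1 higher and 10 lower. Ribosomal centring gave 23 higher and 13 lower, and poly-A centring 5 higher and 32 lower, which follows from the constant each adds. With ribosomal centring the median of the tested interferon genes turned to 0.20 (all genes: 0.54), and differences turned to 0.14 for Ifnar2, 0.037 for Eif2ak2, 0.23 for Ifit2, 0.17 for Usp18, 0.20 for Parp9, 0.32 for Dtx3l, 0.19 for Ifitm3, 0.47 for Isg20, 0.026 for Ifi35 and 0.37 for Aim2, and, not called on either scale, to 0.31 for Ifnar1, 0.16 for Herc6 and 0.14 for Ifi204. With poly-A centring they turned to −0.14 for Ifitm2, −0.35 for Ifitm6, −0.34 for Samhd1, −0.089 for Rtp4, −0.11 for Trim30a, −0.13 for Gbp2 and −0.18 for Gbp7, and, not called on either scale, to −0.14 for Ifit3, −0.20 for Igtp and −0.24 for Ifi202b. Ifnar1 (−0.63), Herc6 (−0.78) and Ifi204 (−0.80) were called lower with poly-A centring. Signal near the array medians limits the values of Mx1, Ifi203 and Ifi213 in GFP_plus and of Mx2 and Iigp1 in both groups.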

Other observations

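Genes that lie among the interferon genes on the chromosome, though not on the list, added to the divided pattern. In the IFIT cluster Ifit1bl2, between Ifit2 and Ifit1, was 11.2 in GFP_plus and 10.3 in GFP_min (0.91, limma adjusted p = 2.71e-06), while Ifit1bl1 was not called (−0.02, adjusted p = 0.887). Il10rb, a chain shared by the receptors of interleukin-10 and interferon lambda that lies between Ifnar2 and Ifnar1, was higher by 0.40 (limma adjusted p = 0.000844), where Ifnar2 was lower by 0.40. The rise of Il10rb is no larger in size than the poly-A shift of −0.41.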
